A study of Homo sapiens with 17 samples.

Results

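Transcripts of 10 genes of the Notch signalling pathway were followed through knockouts of HOXA9, SAFB and MEIS1 in MOLM13, an established human acute myeloid leukaemia cell line that carries the MLL-AF9 fusion oncogene. The 10 were chosen by name from the 58278 gene rows of each count file, with earlier results of these data known. They are the receptors NOTCH1, NOTCH2, NOTCH3 and NOTCH4, the ligands JAG1, JAG2 and DLL1, the nuclear effector RBPJ, and the target genes HES1 and HES4. The first experiment held 3 libraries labelled CRISPR knockout of HOXA9 (HOXA9_KO), 3 labelled CRISPR knockout of SAFB (SAFB_KO) and 3 with a non-targeting guide (NT). The second held 4 libraries labelled CRISPR knockout of MEIS1 (MEIS1_KO) and 4 with a non-targeting guide (NT_MEIS1ex). HOXA9 and its cofactor MEIS1 are homeodomain proteins that MLL fusions keep switched on, and SAFB binds both DNA and RNA at the nuclear matrix; the series title places HOXA9 and SAFB together in a repressive complex. The labels give no time after knockout and no guide, and do not say whether replicate libraries were grown apart, so p-values here reflect only the variation among the deposited libraries, which may be technical.

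Notch receptors are single-pass membrane proteins that are activated by ligands of the Delta and Jagged families on a neighbouring cell. Ligand binding lets ADAM10 and then the gamma-secretase complex cut the receptor, and the freed intracellular domain enters the nucleus, where it joins the DNA-binding protein RBPJ and a Mastermind co-activator at target genes. HES1 and HES4 encode basic helix-loop-helix repressors, and HES1 is a widely used target gene of this pathway. In T-cell acute lymphoblastic leukaemia Notch signalling is oncogenic, whereas in mouse models of myeloid leukaemia it has been described as growth-suppressive.

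RBPJ binds a short DNA element, and the promoter windows of the targets are shown with those of RBPJ and of the 2 receptors that rose in the HOXA9 knockout, because its letters are in the windows of the targets and not in those of the receptors. RefSeq promoter windows (build GRCh38.p14, 250 bases before to 50 after the transcription start) were at hand for 9 of the 10 genes, 13 windows in all, with DLL1 not among them. Capitals mark the core letters TGGGAA, or TTCCCA on the other strand. The windows, each read 5′ to 3′ on the strand of its gene, are HES1 at chr3:194135898-194136197 (plus strand), HES4 at chr1:1000048-1000347 (minus), the second of 5 RBPJ windows at chr4:26319496-26319795 (plus), NOTCH1 at chr9:136545999-136546298 (minus) and NOTCH2 at chr1:120069613-120069912 (minus).
HES1: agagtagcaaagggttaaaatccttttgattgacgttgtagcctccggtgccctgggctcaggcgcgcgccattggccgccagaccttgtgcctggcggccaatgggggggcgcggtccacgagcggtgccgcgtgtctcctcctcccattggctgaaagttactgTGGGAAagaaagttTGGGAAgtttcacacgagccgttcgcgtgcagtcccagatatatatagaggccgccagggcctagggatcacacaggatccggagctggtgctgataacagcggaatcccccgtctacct
HES4: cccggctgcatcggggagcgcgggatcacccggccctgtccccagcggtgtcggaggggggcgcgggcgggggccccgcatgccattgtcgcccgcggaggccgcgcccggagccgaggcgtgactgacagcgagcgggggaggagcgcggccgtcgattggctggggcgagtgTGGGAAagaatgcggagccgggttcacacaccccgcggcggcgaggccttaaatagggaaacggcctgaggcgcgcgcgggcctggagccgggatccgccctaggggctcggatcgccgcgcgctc
RBPJ: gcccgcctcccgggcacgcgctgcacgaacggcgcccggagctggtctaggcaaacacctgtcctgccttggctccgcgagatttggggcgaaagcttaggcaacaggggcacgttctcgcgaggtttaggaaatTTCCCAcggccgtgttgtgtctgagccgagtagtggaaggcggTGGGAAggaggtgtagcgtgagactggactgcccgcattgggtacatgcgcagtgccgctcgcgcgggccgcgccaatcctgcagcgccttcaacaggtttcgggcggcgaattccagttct
NOTCH1: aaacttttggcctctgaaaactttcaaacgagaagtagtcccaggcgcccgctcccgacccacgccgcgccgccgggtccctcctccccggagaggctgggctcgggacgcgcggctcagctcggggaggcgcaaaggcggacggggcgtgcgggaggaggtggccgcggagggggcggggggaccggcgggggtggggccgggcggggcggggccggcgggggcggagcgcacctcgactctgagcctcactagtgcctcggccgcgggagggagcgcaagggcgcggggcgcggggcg
NOTCH2: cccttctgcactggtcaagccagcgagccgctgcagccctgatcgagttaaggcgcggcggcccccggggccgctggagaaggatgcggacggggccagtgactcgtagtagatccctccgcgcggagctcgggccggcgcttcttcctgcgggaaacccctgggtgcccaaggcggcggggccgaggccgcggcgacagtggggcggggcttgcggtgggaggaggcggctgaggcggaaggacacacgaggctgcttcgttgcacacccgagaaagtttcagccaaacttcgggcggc
With positions counted from the transcription start, the HES1 window held TGGGAA at -84 and again at -70, and the first of these was part of the longer form GTGGGAA at -85. The HES4 window held GTGGGAA at -77. The second RBPJ window held TTCCCAC, the longer form on the other strand, at -115 and GTGGGAA at -73. Searched on both strands, GTGGGAA was in 6.25% and the shorter TGGGAA, which lies inside it, in 24.0% of 35116 promoter windows of the table. Neither was in any other of the 5 RBPJ windows, nor in the NOTCH1, NOTCH2, NOTCH3, NOTCH4, JAG1 or JAG2 windows. The letters TGATTNAT, used for paired HOX and PBX proteins and found in 2.82% of all windows, were in none of the 13. TGACAG, used for MEIS proteins and found in 15.8% of all windows, was in the HES4 and JAG2 windows and in 3 of the 5 RBPJ windows, of which an overlapping pair holds the same site. Such matches describe the letters of these windows only; binding was not measured here.

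**Figure D1:**
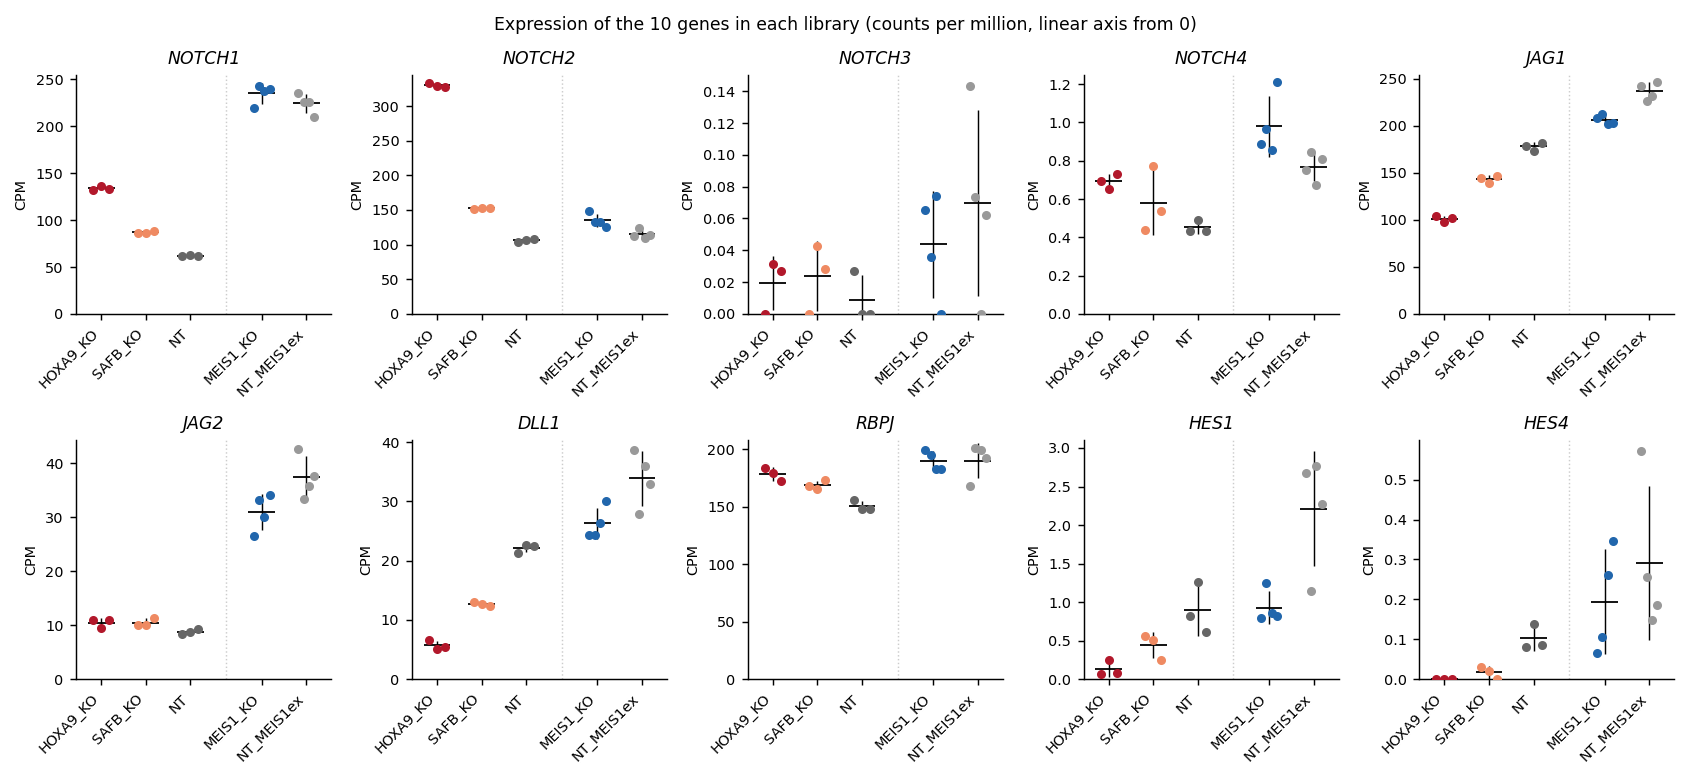
CPM (linear axis from 0) of each of the 10 genes in every library; points are libraries, horizontal bars group means and vertical bars the SD (n = 3 in HOXA9_KO, SAFB_KO and NT, n = 4 in MEIS1_KO and NT_MEIS1ex), with a dotted line between the experiments, which were scaled separately. NOTCH1 and NOTCH2 are highest in HOXA9_KO and lowest in NT within the first experiment, and JAG1 and DLL1 run the other way.

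Reads assigned to genes numbered 23.3 to 67.8 M per library, and the deposited whole-number counts were expressed as CPM, counts divided by the TMM-adjusted size of the library, within each experiment. HOXA9 lay at 21.1 to 21.9 CPM in HOXA9_KO against 40.1 to 42 CPM in NT, SAFB at 19.4 to 22.2 CPM in SAFB_KO against 33.6 to 40.9 CPM in NT, and MEIS1 at 10.3 to 12.8 CPM in MEIS1_KO against 31.7 to 33.4 CPM in NT_MEIS1ex, so each targeted gene was lower in every library of its own knockout. MEIS1 was also lower in HOXA9_KO, at 16.1 to 17.7 CPM against 48.4 to 50.4 CPM in NT. Mitochondrial rRNA took 31.9 to 35.5% of assigned reads in HOXA9_KO, 24.9 to 27% in SAFB_KO and 22.5 to 28.4% in NT, against at most 0.00941% in the MEIS1 experiment. Reads assigned to no counted feature were taken as a share of all reads in the count file. They made up 8.65 to 9.27% in HOXA9_KO, 10.6 to 12.7% in SAFB_KO and 16.4 to 18.1% in NT. Where in the genome they lay is not recorded. Of 10 defining myeloid genes none was at 0, though KIT and CD14 were low (0.557 and 0.114 CPM on average in NT); their summed CPM was 29200 to 32100 in HOXA9_KO, 13100 to 14800 in SAFB_KO and 5070 to 5200 in NT, and 7730 to 8050 in MEIS1_KO against 4190 to 5750 in NT_MEIS1ex. Most of this sum was LYZ, lysozyme, at 29700 CPM in HOXA9_KO, 12800 in SAFB_KO and 4150 in NT on average, while FLT3, a receptor of early myeloid cells, ran the other way at 321, 547 and 675 CPM in the same groups. Summed over 36 interferon-response genes, none at 0, the level was 681 to 718 CPM in HOXA9_KO, 891 to 975 CPM in SAFB_KO and 2670 to 3580 CPM in NT, and 1050 to 1420 CPM in MEIS1_KO against 745 to 973 CPM in NT_MEIS1ex. T-cell markers (5 genes) summed to at most 1.15 CPM, B-cell markers (5 genes) to at most 3.85 CPM and stromal or endothelial markers (6 genes) to at most 0.689 CPM in any library, while 8 erythroid and megakaryocyte markers summed to 8.09 to 22.8 CPM. The part of the myeloid, interferon and mitochondrial differences in the results below was not tested. In bulk RNA of this kind, fewer cells of a type and less RNA per cell cannot be told apart.

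Each knockout was compared with the non-targeting libraries of its own experiment by edgeR's quasi-likelihood test, with p-values adjusted by the Benjamini-Hochberg method over all tested genes; a gene was called, and is said to have risen or fallen, at an adjusted p under 0.05. Changes are log2 fold changes ± SE. HOXA9_KO and SAFB_KO were set against the same NT libraries, so a like change in both is not independent. NOTCH3 and HES4 fell below the filter on low counts, leaving 8 of the 10 tested. In HOXA9_KO 4 of these 8 rose and 3 fell, where 27.6% and 29.9% of all 18876 tested genes did. In SAFB_KO 4 rose and 3 fell, where 20.2% and 15.3% of all tested genes did. In MEIS1_KO 1 rose and 3 fell, where 4.97% and 3.84% of 15744 tested genes did. The share of genes called was therefore high in the first experiment as a whole, 57.5% for HOXA9_KO and 35.5% for SAFB_KO, and the count of members called is to be read against it. As the members were chosen with earlier results of these data known, their counts and medians are a description and no test. The members' median log2 change was 0.24 in HOXA9_KO, 0.21 in SAFB_KO and -0.10 in MEIS1_KO, against medians of -0.07, -0.02 and 0 over all tested genes. With libraries scaled to nuclear protein-coding counts, 2 members rose and 3 fell in HOXA9_KO and likewise in SAFB_KO. Over all tested genes 2870 rose and 9267 fell in HOXA9_KO under that scaling, and 1715 rose and 5533 fell in SAFB_KO. In MEIS1_KO 1 member rose and 3 fell under it, where 979 of all tested genes rose and 450 fell. The member counts under that scaling are to be read against these.

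**Figure D2:**
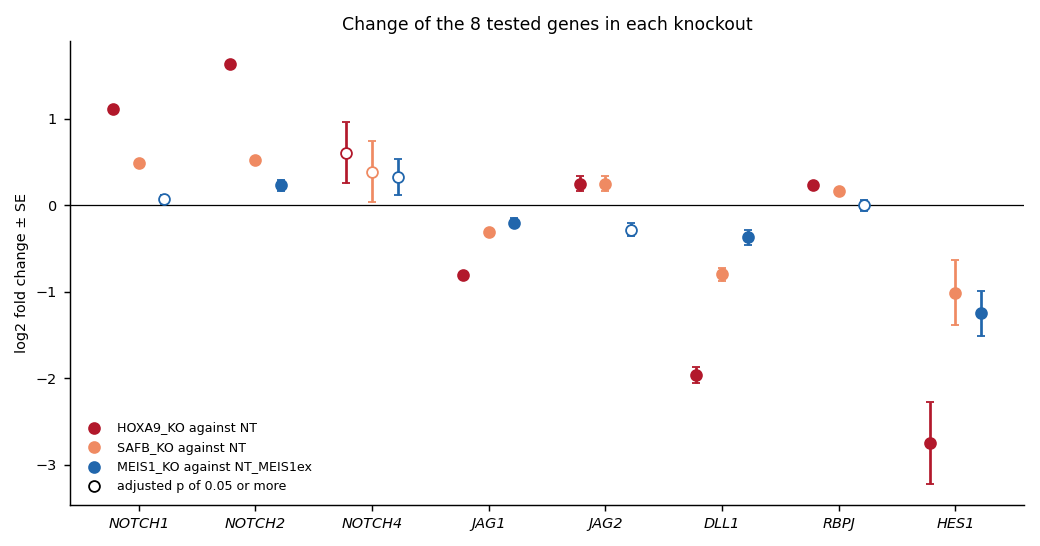
Log2 fold change ± SE of the 8 tested genes in HOXA9_KO and SAFB_KO against NT (n = 3 each) and in MEIS1_KO against NT_MEIS1ex (n = 4 each); filled points passed an adjusted p under 0.05. NOTCH2 reaches 1.63 and HES1 -2.75 in HOXA9_KO; the small rise of RBPJ and JAG2 in HOXA9_KO is no longer there (-0.01 and 0) when libraries are scaled to nuclear protein-coding counts.

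Among the receptors, NOTCH1 and NOTCH2 rose in both knockouts of the first experiment, further in HOXA9_KO. NOTCH1 (ENSG00000148400.9, GRCh38 chromosome 9, 136494433 to 136545786, minus strand) is the receptor most often mutated in T-cell leukaemia. It lay at 132, 136 and 133 CPM in HOXA9_KO and at 86.1, 86.4 and 88.4 CPM in SAFB_KO, against 61.9, 62.6 and 61.3 CPM in NT. The 3 groups did not overlap. The change was 1.11 ± 0.04 in HOXA9_KO (adjusted p = 2.2e-30), a 2.15-fold level, and 0.49 ± 0.04 in SAFB_KO (adjusted p = 1.7e-15), a 1.4-fold level. With MEIS1 targeted, NOTCH1 lay at 219, 243, 238 and 240 CPM in MEIS1_KO against 235, 226, 226 and 210 CPM in NT_MEIS1ex. These groups overlapped, and the change of 0.07 ± 0.05 was not called (adjusted p = 0.458, 95% interval -0.03 to 0.16).

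NOTCH2 (ENSG00000134250.19, chromosome 1, 119911553 to 120069626, minus strand), a receptor that acts in mouse B-cell and monocyte development, had the largest rise of the tested members in HOXA9_KO. It lay at 334, 329 and 328 CPM in HOXA9_KO and at 151, 153 and 153 CPM in SAFB_KO, against 104, 107 and 108 CPM in NT. Its levels were thus separate in all 3 groups, with a change of 1.63 ± 0.03 in HOXA9_KO (adjusted p = 4.3e-40), a 3.1-fold level, and of 0.52 ± 0.03 in SAFB_KO (adjusted p = 1.4e-18). NOTCH2 lay, in the MEIS1 experiment, at 148, 133, 133 and 126 CPM in MEIS1_KO against 113, 124, 109 and 114 CPM in NT_MEIS1ex. Every MEIS1_KO library stood above every control, and the change of 0.23 ± 0.06 passed the test (adjusted p = 0.0149), although it did not without MEIS1_KO replicate 1 (adjusted p = 0.0585) or without NT_MEIS1ex replicate 3 (adjusted p = 0.0637). Of the 100-base windows of NOTCH2 transcripts, 17.5% also occur in NOTCH2NLA, NBPF14, NBPF19, NBPF26 or AC239799.1, so a part of its reads could be divided among copies. The row of NBPF19, which shares such windows, lay at 44.2 to 47.9 CPM in HOXA9_KO, 17.8 to 20.8 CPM in SAFB_KO and 13.2 to 16.1 CPM in NT, while NOTCH2NLA lay at 4.42 to 4.76, 3.74 to 4.23 and 3.28 to 4.21 CPM in the same groups. In the same order NBPF14 lay at 20.3 to 23.1, 12.8 to 13.7 and 12.3 to 12.5 CPM. NBPF26 lay at 4.77 to 5, 4.22 to 5.07 and 4.83 to 4.99 CPM. In the MEIS1 experiment NBPF19 lay at 9.65 to 12.1 CPM in MEIS1_KO against 5.91 to 7.51 CPM in NT_MEIS1ex, without overlap. The other copies overlapped there: NBPF14 at 6.33 to 9.45 against 5.04 to 6.34 CPM, and NOTCH2NLA at 1.86 to 2.13 against 1.43 to 2.24 CPM. NBPF26 lay at 2.93 to 3.94 against 2.55 to 4.03 CPM. The part of shared reads in the NOTCH2 changes was not tested.

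The remaining receptors were scarce. NOTCH4 (chromosome 6, 32194843 to 32224067, minus strand), best known from endothelium, lay at 0.653 to 0.73 CPM in HOXA9_KO and 0.436 to 0.771 CPM in SAFB_KO, against 0.433 to 0.493 CPM in NT. Its change of 0.61 ± 0.35 in HOXA9_KO was not called (adjusted p = 0.136, 95% interval -0.08 to 1.31), nor were those of 0.39 ± 0.35 in SAFB_KO (adjusted p = 0.427) and 0.33 ± 0.21 in MEIS1_KO (adjusted p = 0.366). NOTCH3 (chromosome 19, 15159038 to 15200981, minus strand), known from vascular smooth muscle, had 0 to 2 reads in any library of the first experiment and 0 to 4 in the second. A difference in NOTCH3 was not detectable at this depth.

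Of the ligands, JAG1 and DLL1 fell in all 3 knockouts, and most in HOXA9_KO. JAG1 (ENSG00000101384.11, chromosome 20, 10637684 to 10673999, minus strand) encodes the ligand that is mutated in Alagille syndrome. It lay at 104, 98.2 and 102 CPM in HOXA9_KO and at 144, 139 and 147 CPM in SAFB_KO, against 179, 173 and 182 CPM in NT. The order of the groups was the reverse of that of the receptors, again without overlap. JAG1 fell by 0.81 ± 0.04 on the log2 scale in HOXA9_KO (adjusted p = 1.3e-25) and by 0.31 ± 0.03 in SAFB_KO (adjusted p = 1.8e-10). In the MEIS1 experiment JAG1 lay at 208, 213, 202 and 203 CPM in MEIS1_KO against 242, 226, 232 and 247 CPM in NT_MEIS1ex. Those groups were also separate, with a change of -0.20 ± 0.05 (adjusted p = 0.0105, and 0.058 without MEIS1_KO replicate 3).

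DLL1 (ENSG00000198719.8, chromosome 6, 170282206 to 170306565, minus strand), a ligand of the Delta family, changed most among the ligands. It lay at 6.56, 5.1 and 5.43 CPM in HOXA9_KO and at 13, 12.7 and 12.3 CPM in SAFB_KO, against 21.3, 22.6 and 22.4 CPM in NT. The HOXA9_KO level was 0.258 of that in NT, a change of -1.96 ± 0.09 (adjusted p = 1.5e-25), and the SAFB_KO level 0.575 of it, a change of -0.80 ± 0.08 (adjusted p = 1.6e-12). The MEIS1 experiment had DLL1 at 24.4, 24.4, 26.3 and 30 CPM in MEIS1_KO against 38.7, 27.9, 36 and 33 CPM in NT_MEIS1ex. The groups overlapped through 1 library each, and the change of -0.37 ± 0.09 (adjusted p = 0.0226) lost its call when any of 6 libraries was left out, replicates 1, 2 or 3 of MEIS1_KO or replicates 1, 3 or 4 of NT_MEIS1ex, with adjusted p-values of 0.0527 to 0.0744.

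JAG2 (ENSG00000184916.8, chromosome 14, 105140981 to 105168824, minus strand), the second Jagged ligand, did not follow JAG1 in the first experiment. It lay at 11, 9.49 and 10.9 CPM in HOXA9_KO and at 10.1, 10 and 11.4 CPM in SAFB_KO, against 8.44, 8.7 and 9.34 CPM in NT. Every knockout library stood above the NT libraries, by a narrow margin. The change was 0.25 ± 0.09 in HOXA9_KO (adjusted p = 0.0172) and 0.25 ± 0.09 in SAFB_KO (adjusted p = 0.0216), but with libraries scaled to their nuclear protein-coding counts it was 0 and 0.12 and no longer called, and with genes kept from a mean of 2 CPM upward its adjusted p-values were 0.0553 and 0.0619. The calls were also lost without NT replicate 1, HOXA9_KO replicate 1 or HOXA9_KO replicate 3 (adjusted p of 0.0667 to 0.0746) and, in SAFB_KO, without NT replicates 1 or 2 or SAFB_KO replicate 3 (adjusted p of 0.0607 to 0.155). In the MEIS1 experiment JAG2 lay at 26.6, 33.1, 30 and 34.1 CPM in MEIS1_KO against 42.6, 33.4, 35.8 and 37.7 CPM in NT_MEIS1ex. The groups overlapped, and the change of -0.28 ± 0.08 was just short of the threshold (adjusted p = 0.0512); it passed without MEIS1_KO replicate 4 (adjusted p = 0.0275) or NT_MEIS1ex replicate 2 (adjusted p = 0.0204), by DESeq2 (adjusted p = 0.0302) and without the filter (adjusted p = 9.8e-04). Of JAG2's exon bases, 7.33% also belong to AL512356.1 on the same strand.

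RBPJ (ENSG00000168214.20, chromosome 4, 26163455 to 26435131, plus strand), the DNA-binding partner of all the receptors, changed little. It lay at 184, 179 and 172 CPM in HOXA9_KO and at 168, 165 and 173 CPM in SAFB_KO, against 156, 148 and 148 CPM in NT. HOXA9_KO and SAFB_KO overlapped each other and both lay above NT. The rise of 0.24 ± 0.03 in HOXA9_KO (adjusted p = 3.0e-08) and of 0.16 ± 0.03 in SAFB_KO (adjusted p = 1.3e-04) was not there with libraries scaled to nuclear protein-coding counts, at -0.01 (adjusted p = 0.865) and 0.03 (adjusted p = 0.577). RBPJ in the MEIS1 experiment lay at 199, 195, 183 and 183 CPM in MEIS1_KO against 168, 201, 199 and 192 CPM in NT_MEIS1ex, and the change of 0.00 ± 0.06 had a 95% interval of -0.11 to 0.11 (adjusted p = 0.993).

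The target genes were low in every group and lowest in HOXA9_KO. HES1 (ENSG00000114315.3, chromosome 3, 194136145 to 194138732, plus strand), whose promoter window above holds 2 copies of the RBPJ core letters, had 2, 8 and 3 reads in HOXA9_KO and 18, 24 and 9 in SAFB_KO, against 61, 64 and 28 in NT. That came to 0.0663, 0.249 and 0.0811 CPM in HOXA9_KO and 0.56, 0.514 and 0.255 CPM in SAFB_KO, against 0.825, 1.26 and 0.608 CPM in NT. The 3 groups did not overlap, though SAFB_KO replicate 3 lay close to HOXA9_KO replicate 2. HES1 fell by 2.75 ± 0.47 on the log2 scale in HOXA9_KO (adjusted p = 2.0e-06). In SAFB_KO the change was -1.01 ± 0.38 (adjusted p = 0.031); it was no longer called without NT replicate 2 (adjusted p = 0.252), without SAFB_KO replicate 3 (adjusted p = 0.16) or by DESeq2 (adjusted p = 0.0674). All 3 HOXA9_KO libraries were under the filter's minimum of 0.251 CPM, so HES1 entered the test through the other groups.

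In the MEIS1 experiment HES1 had 24, 35, 23 and 19 reads in MEIS1_KO against 75, 31, 74 and 73 in NT_MEIS1ex, or 0.788, 1.25, 0.855 and 0.818 CPM against 2.68, 1.14, 2.76 and 2.27 CPM. Replicate 2 was the highest of the knockout group and the lowest of the control group, and only there did the groups overlap. The change was -1.25 ± 0.26 (adjusted p = 0.00562) and stayed past the threshold in each alternative run that tested HES1, with adjusted p-values up to 0.0284. HES4 (ENSG00000188290.10, chromosome 1, 998962 to 1000172, minus strand), a HES family member that mouse lacks, had 0 reads in each of the 3 HOXA9_KO libraries and 1, 1 and 0 in SAFB_KO, against 6, 7 and 4 in NT. Taking 3 counts over the HOXA9_KO group as a rough upper limit for a count of 0 gives 0.0302 CPM. The pooled HES4 level of NT, 0.0996 CPM, was 3.3-fold that limit. It rests on 17 reads in all and leaves out variation between libraries, so 3.3-fold is no firm lower bound. HES4 entered a test only without the filter on low counts, where the adjusted p was 0.0318 in HOXA9_KO, 0.307 in SAFB_KO and 0.59 in MEIS1_KO. In the second experiment HES4 had 2, 3, 7 and 8 reads in MEIS1_KO against 16, 7, 4 and 6 in NT_MEIS1ex, and the groups overlapped.

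HOXA9_KO was next set directly against SAFB_KO, in the fit of the 9 libraries, where NT shares the filter, the scaling and the estimate of spread but not the contrast. NOTCH1 and NOTCH2 were higher and JAG1, DLL1 and HES1 lower in HOXA9_KO: 2 of the 8 tested members rose and 3 fell, where 20.1% and 20.5% of all tested genes did (40.6% called). NOTCH2 differed by 1.12 ± 0.03 (adjusted p = 1.7e-32) and NOTCH1 by 0.62 ± 0.04 (adjusted p = 1.2e-19). DLL1 differed by -1.16 ± 0.09 (adjusted p = 2.8e-15), JAG1 by -0.50 ± 0.04 (adjusted p = 1.0e-16) and HES1 by -1.74 ± 0.53 (adjusted p = 0.00618). With only these groups compared HES1 fell below the filter on low counts. It therefore entered this test through NT, and its call is limited by that. JAG2 differed by -0.01 ± 0.09 (95% interval -0.19 to 0.17), RBPJ by 0.08 ± 0.03 (adjusted p = 0.0604, and 0.0172 to 0.47 over the alternatives, of which 7 of 17 called it, among them those without NT replicate 1, HOXA9_KO replicate 3 or SAFB_KO replicate 3; it was -0.03 with scaling to nuclear protein-coding counts) and NOTCH4 by 0.23 ± 0.36 (adjusted p = 0.658). The sign of JAG2 and RBPJ in this comparison changed with the scaling.

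Whether the HOXA9 and SAFB effects differed from the MEIS1 effect was tested in a fit of all 17 libraries. MEIS1 was targeted in its own experiment, so a difference between effects cannot be told apart from a difference between the experiments. The HOXA9 effect minus the MEIS1 effect was called higher for 4 of the 8 tested members and lower for 3, where 24.5% and 19.7% of 18836 tested genes were. The change of NOTCH1 was higher in the HOXA9 knockout by 1.08 ± 0.07 (adjusted p = 6.5e-16) and that of NOTCH2 by 1.44 ± 0.07 (adjusted p = 9.5e-19). The effects on DLL1 differed by -1.54 ± 0.14 (adjusted p = 1.6e-10) and those on JAG1 by -0.57 ± 0.06 (adjusted p = 3.5e-09), both falling further in the HOXA9 knockout. The effects on JAG2 differed by 0.57 ± 0.13 (adjusted p = 4.3e-04), and those on RBPJ by 0.29 ± 0.07 (adjusted p = 0.00102), but neither was called with scaling to nuclear protein-coding counts (0.25 and -0.04). For HES1 the difference of -1.46 ± 0.58 was near the threshold (adjusted p = 0.0409) and lost its call when any of 6 libraries was left out, replicate 2 of NT, replicates 1 or 3 of HOXA9_KO, replicate 2 of MEIS1_KO or replicates 2 or 4 of NT_MEIS1ex (adjusted p of 0.0517 to 0.16), and with limma-voom (adjusted p = 0.0751).

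The SAFB effect minus the MEIS1 effect was called higher for 3 members and lower for 1, where 12.4% and 8.49% of the tested genes were. NOTCH1 differed by 0.43 ± 0.07 (adjusted p = 9.0e-06), JAG2 by 0.54 ± 0.13 (adjusted p = 0.00225) and NOTCH2 by 0.29 ± 0.07 (adjusted p = 0.00205), the last of these not called with scaling to nuclear protein-coding counts (adjusted p = 0.248). DLL1 differed by -0.42 ± 0.13 (adjusted p = 0.0191, and 0.0571 without SAFB_KO replicate 3). The effects on JAG1 differed by -0.11 ± 0.06, with a 95% interval of -0.23 to 0.02 (adjusted p = 0.248), but were called as different with scaling to nuclear protein-coding counts (-0.28, adjusted p = 4.8e-04) and with genes kept from a mean of 2 CPM upward (-0.18, adjusted p = 0.0191). Those on HES1 differed by 0.25 ± 0.46, with an interval of -0.66 to 1.16.

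Levels of different genes were compared per kb of exon. In NT the order was JAG1 at 19.1 ± 0.478 CPM per kb (SD, n = 3), RBPJ at 16.3 ± 0.505, DLL1 at 6.84 ± 0.211, NOTCH2 at 6.33 ± 0.123, NOTCH1 at 5.97 ± 0.0606 and JAG2 at 1.38 ± 0.0724 CPM per kb, followed by HES1, HES4, NOTCH4 and NOTCH3 at 0.436 CPM per kb or less. In HOXA9_KO NOTCH2 stood first at 19.7 ± 0.184 CPM per kb, with RBPJ at 19.3 ± 0.64, NOTCH1 at 12.9 ± 0.209 and JAG1 at 10.9 ± 0.311 CPM per kb (SD, n = 3), and then DLL1 at 1.77 ± 0.238 and JAG2 at 1.63 ± 0.131 CPM per kb. The libraries of NOTCH2 and RBPJ overlapped there, as did those of DLL1 and JAG2. In SAFB_KO the order was RBPJ at 18.2, JAG1 at 15.4, NOTCH2 at 9.05, NOTCH1 at 8.38, DLL1 at 3.93 and JAG2 at 1.64 CPM per kb, with no overlap between neighbours. In MEIS1_KO NOTCH1 led at 22.6 ± 1.01 CPM per kb and overlapped JAG1 at 22.2 ± 0.545 (SD, n = 4), with RBPJ at 20.5, DLL1 at 8.14, NOTCH2 at 8.04 and JAG2 at 4.84 CPM per kb; DLL1 and NOTCH2 overlapped. In NT_MEIS1ex JAG1 led at 25.4 ± 0.995 CPM per kb, above NOTCH1 at 21.6 ± 1.03 and RBPJ at 20.5 ± 1.64 (SD, n = 4), of which the last 2 overlapped, and DLL1 at 10.5, NOTCH2 at 6.84 and JAG2 at 5.84 CPM per kb followed, NOTCH2 and JAG2 overlapping. Among 19778 protein-coding genes, HES1 stood at percentile 45.3 in NT and JAG1 at percentile 93.1.

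The control libraries of the experiments were not alike. NOTCH1 averaged 224 ± 10.6 CPM in NT_MEIS1ex (SD, n = 4) and 62 ± 0.629 CPM in NT (SD, n = 3), and JAG2 37.4 ± 3.91 CPM and 8.83 ± 0.463 CPM in the same groups. The experiments were scaled separately and differ in their mitochondrial rRNA, so these control levels stand side by side without a test.

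Summed over the 4 receptors, the level was 32.6 ± 0.153 CPM per kb in HOXA9_KO and 17.5 ± 0.2 CPM per kb in SAFB_KO, against 12.4 ± 0.153 CPM per kb in NT (SD, n = 3 each). Summed over the 3 ligands it was 14.3 ± 0.651 CPM per kb in HOXA9_KO and 21 ± 0.458 CPM per kb in SAFB_KO, against 27.4 ± 0.473 CPM per kb in NT. The ratio of the receptor sum to the ligand sum, which does not depend on how libraries are scaled, was 2.19, 2.4 and 2.26 in HOXA9_KO and 0.822, 0.855 and 0.826 in SAFB_KO, against 0.45, 0.463 and 0.443 in NT. Receptor transcripts outweighed ligand transcripts in HOXA9_KO alone of the 5 groups. In the MEIS1 experiment the ratio was 0.882, 0.882, 0.896 and 0.843 in MEIS1_KO against 0.662, 0.765, 0.68 and 0.636 in NT_MEIS1ex, again without overlap. The ratio describes genes already known to have moved and was not tested.

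**Figure D3:**
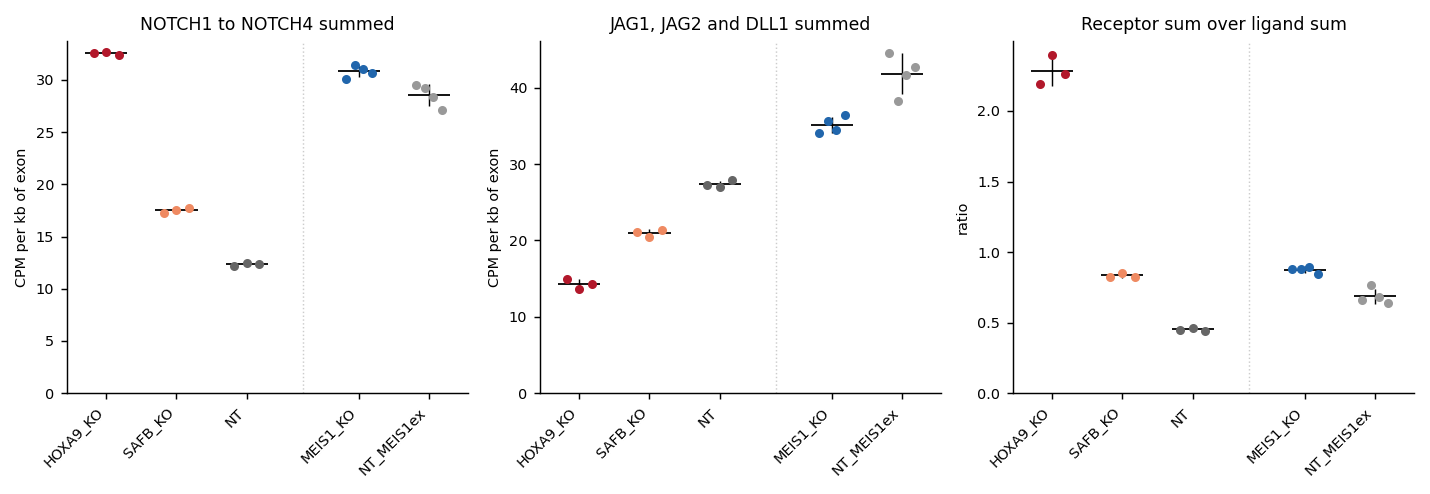
Summed CPM per kb of exon of the 4 receptors (left) and the 3 ligands (middle), and the ratio of these sums (right), by library; horizontal bars are means and vertical bars the SD, axes are linear from 0. The ratio averages 2.28 in HOXA9_KO, 0.834 in SAFB_KO and 0.452 in NT, and 0.876 in MEIS1_KO against 0.686 in NT_MEIS1ex.

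Within the receptor sum, NOTCH2 made up 60.3% in HOXA9_KO and 51.7% in SAFB_KO, against 51.3% in NT, and 26.1% in MEIS1_KO against 24% in NT_MEIS1ex. The ratio of NOTCH2 to NOTCH1 per kb was 1.5 to 1.56 in HOXA9_KO and 1.07 to 1.09 in SAFB_KO, against 1.04 to 1.09 in NT. The balance between these receptors thus moved in HOXA9_KO, while SAFB_KO and NT overlapped. Within the ligand sum DLL1 made up 12.3% in HOXA9_KO and 18.7% in SAFB_KO, against 25% in NT, whereas in MEIS1_KO and NT_MEIS1ex it made up 23.2% and 25%.

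Genes that act with the members were taken from a list of 58 other pathway genes. This list too was chosen with earlier results of these data known, so its shares and those of its roles are descriptions. In HOXA9_KO 23 of the 46 tested rose and 10 fell (71.7% called, against 57.5% of all tested genes; median change 0.18 against -0.07). In SAFB_KO 16 rose and 6 fell (47.8% called, against 35.5%; median 0.09 against -0.02), and in MEIS1_KO none of 47 rose and 4 fell (8.51% called, against 8.81%; median 0.04 against 0). With scaling to nuclear protein-coding counts the balance moved toward falls in the first experiment, as it did over all tested genes. On the list 11 rose and 20 fell in HOXA9_KO, where 2870 of all tested genes rose and 9267 fell. In SAFB_KO 7 rose and 12 fell, where 1715 of all tested genes rose and 5533 fell. In MEIS1_KO 1 rose and 3 fell, where 979 of all tested genes rose and 450 fell. The counts of each role under that scaling are to be read against these. HES5 and DLK1 had no read in any library, and HEY1, HEY2, DTX1 and DLL4 were among those too low to test in HOXA9_KO.

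The proteases that process Notch receptors moved together. FURIN, which cuts the precursor, ADAM10 and ADAM17, which shed the ectodomain, and genes of the gamma-secretase complex, NCSTN and APH1A among them, rose in HOXA9_KO, 9 of 9 on the list, by 0.31 to 1.70 (median 0.45), and all 9 rose in SAFB_KO, by 0.15 to 0.89 (median 0.27), where 27.6% and 20.2% of all tested genes rose; with scaling to nuclear protein-coding counts 7 and 6 of the 9 were still called, all higher. In MEIS1_KO none of the 9 was called (1 under that scaling), with changes of -0.10 to 0.28. Of all tested genes 8.81% were called there, and none of 9 is near that share. FURIN averaged 67.5 ± 2.61 CPM in HOXA9_KO and 48.3 ± 1.41 CPM in SAFB_KO, against 38.1 ± 1.92 CPM in NT (SD, n = 3 each), a change of 0.83 ± 0.05 and 0.34 ± 0.05 (adjusted p = 7.6e-21 and 7.7e-08). NCSTN, a gamma-secretase subunit, averaged 214 ± 4.39 CPM in HOXA9_KO and 178 ± 6 CPM in SAFB_KO, against 143 ± 8.6 CPM in NT. ADAM10 changed by 0.45 ± 0.03 in HOXA9_KO (adjusted p = 1.4e-16) and by 0.27 ± 0.03 in SAFB_KO (adjusted p = 3.6e-09). PSEN2, a gamma-secretase gene named here after its values were seen, had the largest change of the 9 at 1.70 ± 0.19 in HOXA9_KO, from a low level: 3.53 ± 0.418 CPM in HOXA9_KO and 2.01 ± 0.31 CPM in SAFB_KO, against 1.09 ± 0.117 CPM in NT.

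Enzymes that add sugars to the receptors changed less evenly. In HOXA9_KO 4 of 8 rose and 2 fell (75% called, against 57.5% of all tested genes). Those with the smallest p-values were MFNG, a Fringe glycosyltransferase that alters which ligand a receptor answers to, at 0.44 ± 0.04 (adjusted p = 1.3e-12), XXYLT1 at 0.53 ± 0.08 (adjusted p = 4.3e-07) and POFUT1, the O-fucosyltransferase, at 0.30 ± 0.04 (adjusted p = 9.9e-08). In SAFB_KO 2 of 8 rose and 1 fell (37.5% called, against 35.5%), MFNG at 0.17 ± 0.04 and XXYLT1 at 0.22 ± 0.08 rising and LFNG, another Fringe enzyme, at -0.40 ± 0.13 (adjusted p = 0.0134). With scaling to nuclear protein-coding counts 2 rose and 3 fell in HOXA9_KO, POFUT1 no longer being called (0.05), and none rose and 1 fell in SAFB_KO. Of all called genes 23.6% were higher in HOXA9_KO and 23.7% in SAFB_KO under that scaling. In MEIS1_KO 1 of 8 was called (12.5%, against 8.81%). This was MFNG at -0.21 ± 0.06 (adjusted p = 0.0273), opposite in sign to its change in the other knockouts.

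Among 11 tested nuclear cofactors, 5 rose and 2 fell in HOXA9_KO (63.6% called, against 57.5% of all tested genes). In SAFB_KO 1 rose and 2 fell (27.3% against 35.5%), and in MEIS1_KO none was called (against 8.81%). The co-activator genes CREBBP and MAML1 rose in HOXA9_KO by 0.34 ± 0.04 and 0.26 ± 0.05. Neither was called with scaling to nuclear protein-coding counts (0.08 and 0.01). Under that scaling 1 cofactor rose and 6 fell in HOXA9_KO, where 23.6% of all called genes were higher. In SAFB_KO NCOR1 changed by -0.16 ± 0.03, MAML3 by -0.23 ± 0.08 and MAML1 by 0.16 ± 0.05, the last not called under that scaling (0.02). Among 9 tested genes of receptor trafficking and turnover, 4 rose and 2 fell in HOXA9_KO (66.7% called, against 57.5%). In SAFB_KO 4 rose and 1 fell (55.6% against 35.5%), and in MEIS1_KO none was called (against 8.81%). Under that scaling 1 rose in each of HOXA9_KO and SAFB_KO, with 5 and 1 falling. Of all called genes 23.6% and 23.7% were higher there. DTX4, a Deltex ubiquitin ligase, rose to 5.67 ± 0.776 CPM in HOXA9_KO and 4.26 ± 0.213 CPM in SAFB_KO, against 2.16 ± 0.351 CPM in NT, a change of 1.39 ± 0.14 and 0.99 ± 0.14 (adjusted p = 4.6e-12 and 2.1e-07). DTX3L, a Deltex relative that is also an interferon-response gene, fell to 57.1 ± 0.4 CPM in HOXA9_KO and 63.2 ± 0.278 CPM in SAFB_KO, against 115 ± 17 CPM in NT, alongside the interferon list described above. ITCH, another ubiquitin ligase, changed by 0.20 ± 0.04 in HOXA9_KO and 0.13 ± 0.04 in SAFB_KO, and by -0.05 and -0.01 under the protein-coding scaling.

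**Figure D4:**
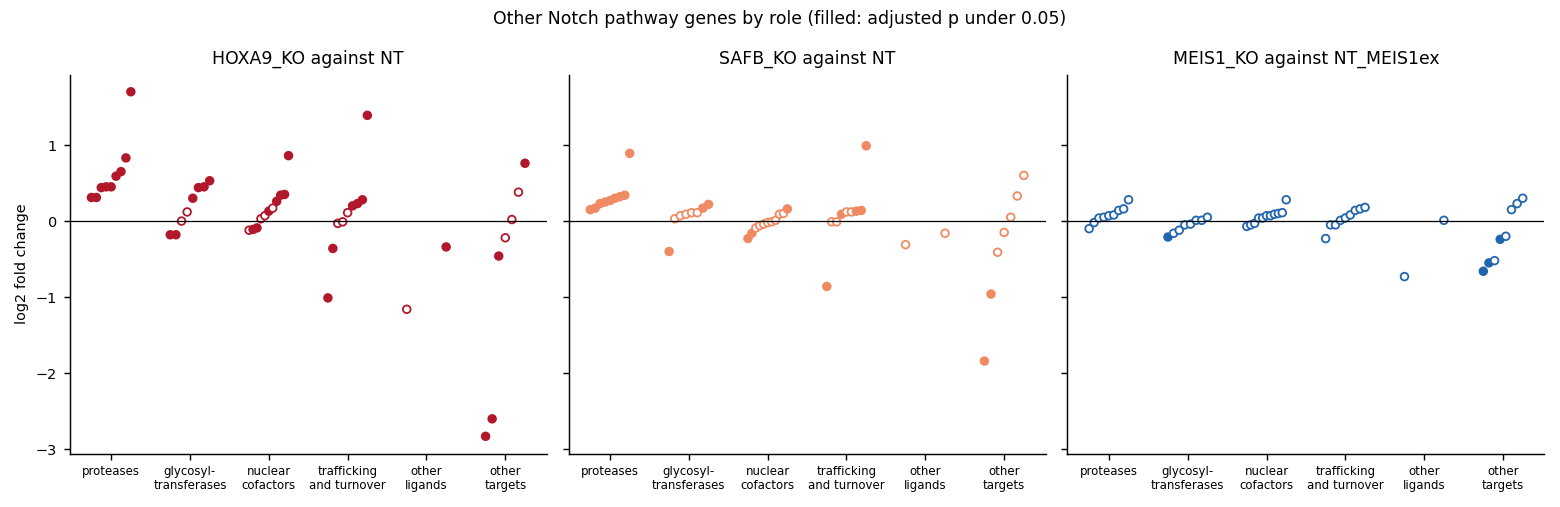
Log2 fold change of each tested gene of the list of other Notch pathway genes, by role, in HOXA9_KO and SAFB_KO against NT (n = 3 each) and in MEIS1_KO against NT_MEIS1ex (n = 4 each); filled points passed an adjusted p under 0.05. All 9 proteases lie above 0 in HOXA9_KO and SAFB_KO (7 and 6 of them still called with scaling to nuclear protein-coding counts). None of the 9 was called in MEIS1_KO (1 under that scaling), where 8.81% of all tested genes were called.

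Other genes described as Notch targets, chosen from work in other cell types, were called about as often as all tested genes in HOXA9_KO. There 3 of 7 fell and 1 rose (57.1% called, against 57.5% of all tested genes), in SAFB_KO 2 of 7 fell (28.6% against 35.5%), and in MEIS1_KO 3 of 8 fell (37.5% against 8.81%). With scaling to nuclear protein-coding counts none rose and 4 fell in HOXA9_KO and in SAFB_KO, and 2 fell in MEIS1_KO. Under that scaling 23.6%, 23.7% and 68.5% of all called genes were higher in the same groups. IL2RA, the interleukin-2 receptor alpha chain, lay at 1.36, 1.46 and 1.24 CPM in HOXA9_KO and at 2.8, 2.31 and 3 CPM in SAFB_KO, against 9.95, 7.6 and 11.3 CPM in NT. The groups did not overlap, with changes of -2.83 ± 0.16 (adjusted p = 3.7e-21) and -1.84 ± 0.14 (adjusted p = 7.0e-16). CCND1, cyclin D1, changed by -2.60 ± 0.40 in HOXA9_KO (adjusted p = 2.3e-07), where it had 2 to 8 reads. All HOXA9_KO libraries were under the filter's minimum, so CCND1 entered the test through the other groups. It changed by -0.96 ± 0.32 in SAFB_KO (adjusted p = 0.016) and by -0.66 ± 0.15 in MEIS1_KO (adjusted p = 0.00845). TCF7, a T-cell transcription factor, changed by -0.46 ± 0.18 in HOXA9_KO (adjusted p = 0.0247). In MEIS1_KO MYC changed by -0.24 ± 0.04 (adjusted p = 0.00265) and NRARP, which encodes a feedback inhibitor of Notch, by -0.55 ± 0.16 (adjusted p = 0.0375, and 0.0522 with scaling to nuclear protein-coding counts). NRARP lay at 0.388 ± 0.0785 CPM in HOXA9_KO and 0.568 ± 0.0745 CPM in SAFB_KO, against 0.451 ± 0.213 CPM in NT, while the NT_MEIS1ex libraries held 3.82 ± 0.394 CPM. Among the ligands outside the 10 members, DLK2 changed by -0.34 ± 0.15 in HOXA9_KO (adjusted p = 0.0432, and 0.0701 with RLE factors) and none was called in SAFB_KO or MEIS1_KO.

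The genes whose pattern was most like that of a member were sought among 10787 genes, as the Pearson correlation of log2 CPM, centred within each experiment, over the 17 libraries. The nearest to NOTCH1 were APLP2 (r = 0.991), KIAA0930 (r = 0.991) and KLF13 (r = 0.990). Those nearest to NOTCH2 were TRAF3IP2 (r = 0.997), MAPK14 (r = 0.995) and FGR (r = 0.994), and those nearest to HES1 were TMEM18 (r = 0.924), CDT1 (r = 0.912) and CMSS1 (r = 0.906). The libraries of a group share their treatment and scaling, and these values are a description with no test.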

How the data were processed

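The authors deposited read counts of genes for 17 libraries, made, per the submitters' processing notes, with Trim Galore, STAR 2.7.10a, HTSeq 1.99.2 and bedtools on hg38. Per the labels' protocols, rRNA-depleted total RNA had been made into directional libraries and read in pairs on a HiSeq. Neither the strand option of HTSeq nor the gene annotation is named in the sources used here. Symbols and coordinates came from GENCODE 29, matched by identifier without version (57895 of 58278).

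Reads assigned to no counted feature (6.07 to 18.1%) and in more than 1 gene (6.09 to 12.2%) were left out of library sizes. Counts were filtered with filterByExpr (10 reads in enough libraries, 15 in total), TMM-scaled and tested with edgeR 4.0.16 (R 4.3.3, robust quasi-likelihood, Benjamini-Hochberg over all tested genes, called under 0.05). The 9 and the 8 libraries formed a fit each, and all 17 a fit for differences between effects. The biological coefficient of variation was 4.63, 6.75 and 5.92%. CPM per kb used the exon union of GENCODE 29. Log2 CPM used a prior count of 2.

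Members and lists were chosen with earlier results of these data known. Named were all members, up to 3 called pathway genes per role by smallest p, the targeted genes, and the 3 genes most alike to NOTCH1, NOTCH2 and HES1 with at least 2 CPM; 1 gene that this rule names is not reported here. Alternatives were RLE factors, scaling to nuclear protein-coding counts, a mean of at least 2 CPM, no filter at all, limma-voom (limma 3.58.1), DESeq2 1.42.0, a replicate block, only the compared groups, and leaving out each library. The method was tested on simulated data. No pair of libraries within a group was identical or agreed within sampling noise, and pairs across groups were not examined. Intervals are normal ones from the SE.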

Additional observations from a re-analysis of the deposited data

Results flagged for a closer look

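HES1 lay at 1.25 CPM in MEIS1_KO replicate 2, far from the 0.788 to 0.855 CPM of the other 3 MEIS1_KO libraries. Its gap to the nearest of them was 0.854 of the range of the group. It was 1 of 20 gene and group pairs examined for a library that stands apart, and chance alone would give about 1 in 20. Without this library the HES1 change in MEIS1_KO kept its call.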

How the results depend on the processing

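Of 899 alternative values for the members, 832 kept their direction and their side of the threshold, 32 lost and 16 gained a call, and 19 changed sign. Scaling to nuclear protein-coding counts moved the median of all genes by -0.25 in HOXA9_KO, -0.14 in SAFB_KO, 0.03 in MEIS1_KO, -0.11 in HOXA9_KO against SAFB_KO, and -0.33 and -0.18 for the HOXA9 and SAFB effects minus the MEIS1 effect. The share of called genes that were higher went with it: 23.6% (48% in the TMM fit), 23.7% (56.9%), 68.5% (56.5%), 29.6% (49.4%), 19.3% (55.5%) and 14.8% (59.3%) in the same order. Under that scaling the sign turned for JAG2 (0) and RBPJ (-0.01) in HOXA9_KO, RBPJ between HOXA9_KO and SAFB_KO (-0.03), NOTCH4 (0) and RBPJ (-0.04) in the HOXA9 minus MEIS1 effect, and NOTCH4 (-0.11) and RBPJ (0) in the SAFB minus MEIS1 effect; by construction it moves all genes together. The other changes of sign were of values near 0 whose cause was not tested. RBPJ in MEIS1_KO was 0 with RLE factors and DESeq2, -0.01 without the filter, and -0.05 to -0.01 without MEIS1_KO replicates 1 or 2 or NT_MEIS1ex replicate 1. JAG2 between HOXA9_KO and SAFB_KO was 0.02 with RLE factors and DESeq2, 0 with only the 2 groups compared, and 0.06 and 0.07 without HOXA9_KO replicate 2 and SAFB_KO replicate 3. NOTCH4 in the SAFB minus MEIS1 effect was -0.21 without SAFB_KO replicate 2, within a range of -0.21 to 0.23 as each library was left out.

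The count of members called in MEIS1_KO was 4, and ranged from 2 to 5 as each library was left out, at 2 without MEIS1_KO replicates 1 or 3 or NT_MEIS1ex replicate 3. The pathway count in MEIS1_KO was 4, with a range of 2 to 6, at 2 without MEIS1_KO replicates 1, 2 or 3, and 7 without the filter. Leaving out a library made the pathway count 27 to 32 in HOXA9_KO and 15 to 23 in SAFB_KO. A minimum mean of 2 CPM left HES1 and NOTCH4 out of the tests, and HES1 is limited by 2 to 8 reads per HOXA9_KO library.

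The counts showed no clear pairing by replicate number. Deviations of same-numbered libraries correlated at -0.05 to 0.08 in the first experiment and at -0.3 to 0.12 in the second. With so few libraries per group this cannot tell whether same-numbered libraries were prepared together, and the labels do not say. With a replicate block the members called were 7 in HOXA9_KO, 7 in SAFB_KO, 4 in MEIS1_KO, 5 in HOXA9_KO against SAFB_KO, and 7 and 4 for the HOXA9 and SAFB effects minus the MEIS1 effect. Pathway genes called with the block were 34, 22 and 4 in HOXA9_KO, SAFB_KO and MEIS1_KO.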
